A study of Homo sapiens with 6 samples.

Results

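The genes described here encode the proteasome and the proteins that build, activate or inhibit it. They were chosen by name, as genes whose Entrez identifier maps to a symbol beginning with PSMA, PSMB, PSMC, PSMD, PSME, PSMF or PSMG and a digit, or to POMP, with pseudogenes left out, which gave 48 of the 12703 genes counted. Of these, 44 encode subunits, assembly chaperones, activators or an inhibitor, and 4 carry a proteasome symbol without being one of those: PSME3IP1, PSMC3IP, PSMG3-AS1 and PSMA3-AS1. RNA was sequenced from PC3 cells, an established line of human prostate carcinoma that came from a metastasis in bone. The 3 control libraries came from PC3 lines stably transduced with negative-control lentiviral particles (Lenti-ORF control), and the 3 GCNT1 overexpressing libraries from PC3 lines transduced with particles carrying GCNT1, which encodes an enzyme that branches O-glycans. All 6 lines therefore carried a lentiviral insertion and had the same parent line, and the labels name the 3 libraries of a group as biological replicates without saying how the lines were derived.

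The proteasome degrades proteins that carry ubiquitin chains. Its barrel-shaped 20S core is a stack of rings of alpha subunits, which gate the entry, and beta subunits, of which PSMB5, PSMB6 and PSMB7 cut peptide bonds. The 19S particle caps the core, recognises and removes ubiquitin, and unfolds substrates with a ring of ATPases. In cells exposed to interferon, other catalytic subunits such as PSMB10 replace the standard ones.

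The libraries held 11392213 to 13825704 counts, with TMM scaling factors between 0.975 and 1.024. GCNT1 had 9, 13 and 8 reads in the control libraries and 13, 16 and 35 reads in the overexpressing libraries, so control replicate 2 and overexpressing replicate 1 had the same count. Whether transcripts of the vector were counted on this gene is not given in the sources used here. GCNT1 was higher by 0.98 on the log2 scale (SE 0.37, adjusted p = 0.0362, edgeR quasi-likelihood test with Benjamini-Hochberg adjustment over all genes, as for every adjusted p here). The epithelial keratins KRT8 and KRT18 were at 202 to 253 CPM, the counts scaled to a common library size with TMM, in both groups, with KRT18 lower in overexpressing cells (adjusted p = 0.00504), and KRT19 fell from 369 to 230 CPM (log2 fold change -0.68, adjusted p = 4.27e-07). EPCAM was at 5.54 and 5.91 CPM, and the prostate protease gene TMPRSS2 fell from 4.20 to 1.75 CPM (adjusted p = 9.25e-05). Of 3 endothelial markers, PECAM1 was at 1.77 CPM in controls and 4.43 CPM in overexpressing lines (log2 fold change 1.31, adjusted p = 8.36e-05). Of 4 fibroblast markers, COL1A1 was at 14.6 and 8.55 CPM (-0.77, adjusted p = 2.32e-05). The other endothelial and fibroblast markers (CDH5, VWF, COL1A2, PDGFRB and DCN), the leukocyte markers PTPRC, CD3E and LYZ, and KLK3 were not analysed here. The part of these marker differences in the results was not tested.

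Across the proteasome as a whole, few genes passed the fold threshold of the study. Genes were called where the adjusted p was below 0.05 and the log2 fold change was 0.58 or more in either direction, which are the thresholds of the study. By this rule 2 of the 48 genes were called (4.17%), against 19.3% of all genes tested. PSMG1, a chaperone of the 20S core, was called higher, as were 8.28% of all genes, and PSME4, an activator that binds the ends of the core, was called lower, as were 11.1% of all genes. The adjusted p alone was passed by 29 of the 48 genes (60.4%), a share near that of all genes (57.6%). Of these, 17 rose (35.4%, against 28.3% of all genes) and 12 fell (29.3% of all genes). With libraries scaled by their size alone the split was 22 higher and 5 lower, and that of all genes was 4290 higher and 3144 lower. The 3 control and 3 overexpressing values did not overlap for 28 of the 48 genes (58.3%, against 62.5% of all genes), 17 of them higher (30.9% of all genes) and 11 lower (31.6% of all genes).

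**Figure D1:**
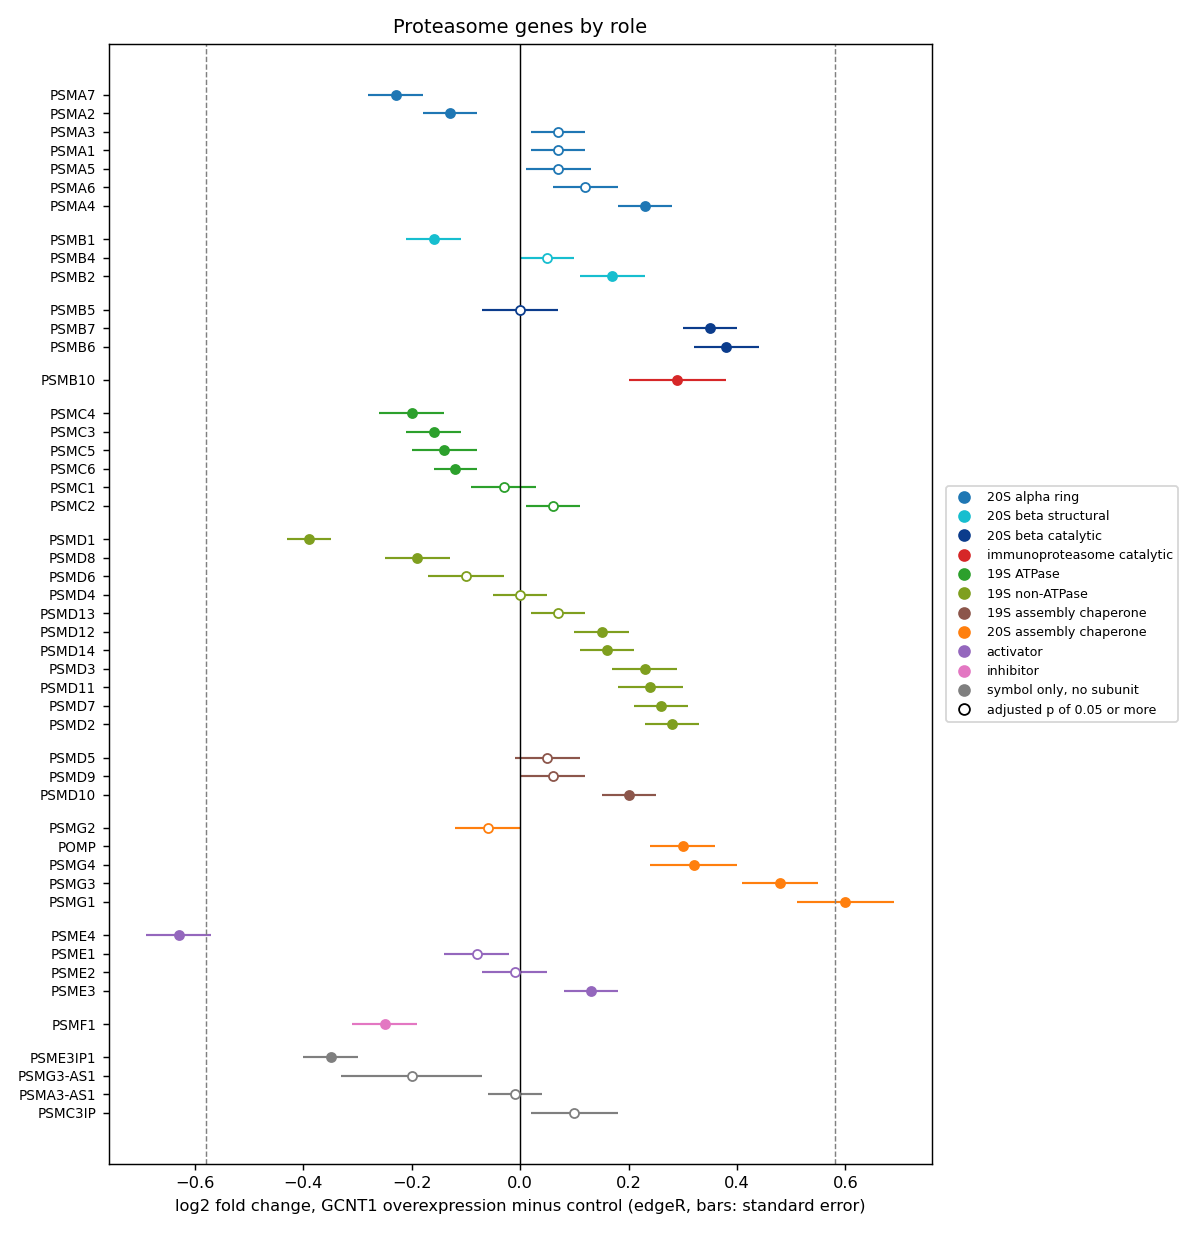
The log2 fold change of each of the 48 genes (GCNT1 overexpression minus control, edgeR, horizontal axis) is drawn as a point with its standard error as a bar, coloured by role, with filled points for an adjusted p below 0.05 and dashed lines at an absolute log2 fold change of 0.58. PSMG1 at 0.60 and PSME4 at -0.63 are the points beyond the dashed lines, and 45 of the 48 points lie within 0.4 of zero.

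The differences of these genes were smaller than those of genes in general. The absolute log2 fold change was under 0.4 for 45 of the 48 genes (93.8%), against 66.8% of all genes, and its median was 0.16, against 0.26 for all genes. These are descriptions without a test, and the proteasome genes were also at a higher level, with a median of 151 CPM over the 6 libraries against 32.8 CPM for all genes. The median signed log2 fold change was 0.06, against 0.00 for all genes. Standard errors ran from 0.04 to 0.13 with a median of 0.06, against a median of 0.08 for all genes, and the counts behind them ran from 59 to 14112 per library. The summed level of the 48 genes was 7520, 7550 and 7710 CPM in the control libraries and 8160, 7510 and 7680 CPM in the overexpressing libraries. The 2 groups overlapped in this sum, at 7590 ± 101 CPM in controls and 7780 ± 337 CPM in overexpressing cells (SD, n = 3 each).

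**Figure D2:**
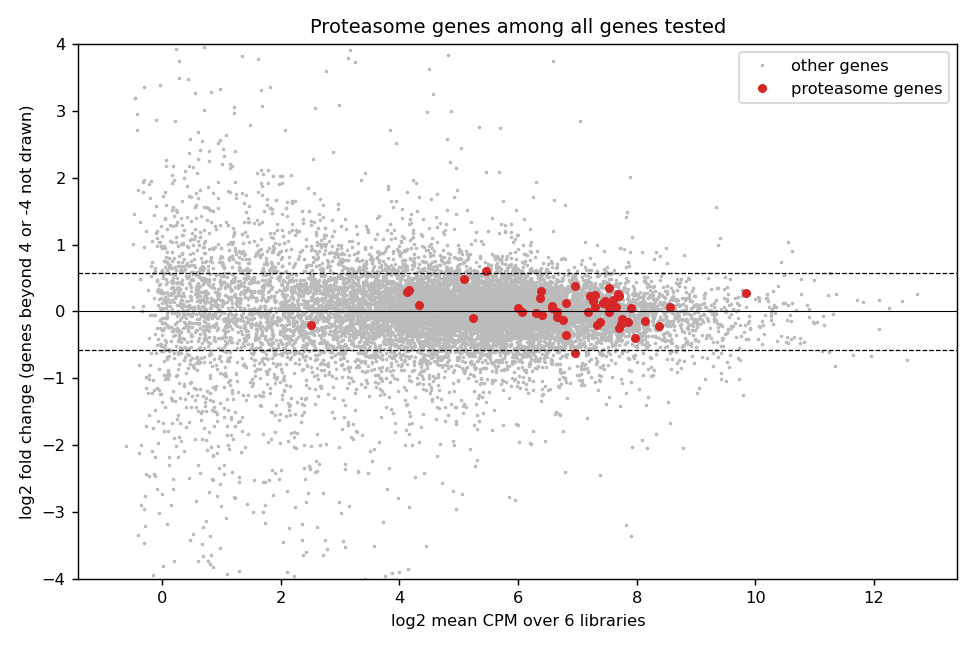
The log2 fold change (vertical axis, values beyond 4 in either direction not drawn) is plotted against the log2 of the mean CPM over 6 libraries (horizontal axis), with the 48 proteasome genes in red, other genes in grey and dashed lines at 0.58 in either direction. The grey points spread more widely at low CPM, and the red points lie between -0.63 and 0.60, mostly to the right of the plot.

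One library carried much of the upper range. Overexpressing replicate 1 was the highest of the 6 libraries for 27 of the 48 genes (56.2%), against 21.9% of all genes. Within its own group it was the highest for 40 of the 48 genes, a larger share than the 41.0% of all genes. Without this library 14 genes rose and 11 fell at the adjusted p (3609 and 3747 of all genes), and the median log2 fold change was 0.02. The 12 falls (3721 of all genes) became 5 without overexpressing replicate 2 or 3, where 3405 and 3256 of all genes fell. They became 7 without control replicate 2, where 3267 of all genes fell. Of the 29 genes past the adjusted p, 17 stayed past it in each of 12 alternative analyses (DESeq2, limma-voom, scaling by RLE factors or by library size alone, a minimum of 10 counts, the replicate block, and each of 6 libraries left out, but not glmTreat or the local median), 12 of them higher (POMP, PSMA4, PSMB6, PSMB7, PSMD2, PSMD3, PSMD7, PSMD10, PSMD11, PSMG1, PSMG3 and PSMG4) and 5 lower (PSMA7, PSMD1, PSME3IP1, PSME4 and PSMF1). How many of all genes stayed past it in these 12 analyses was not computed, so these counts have no background.

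**Figure D3:**
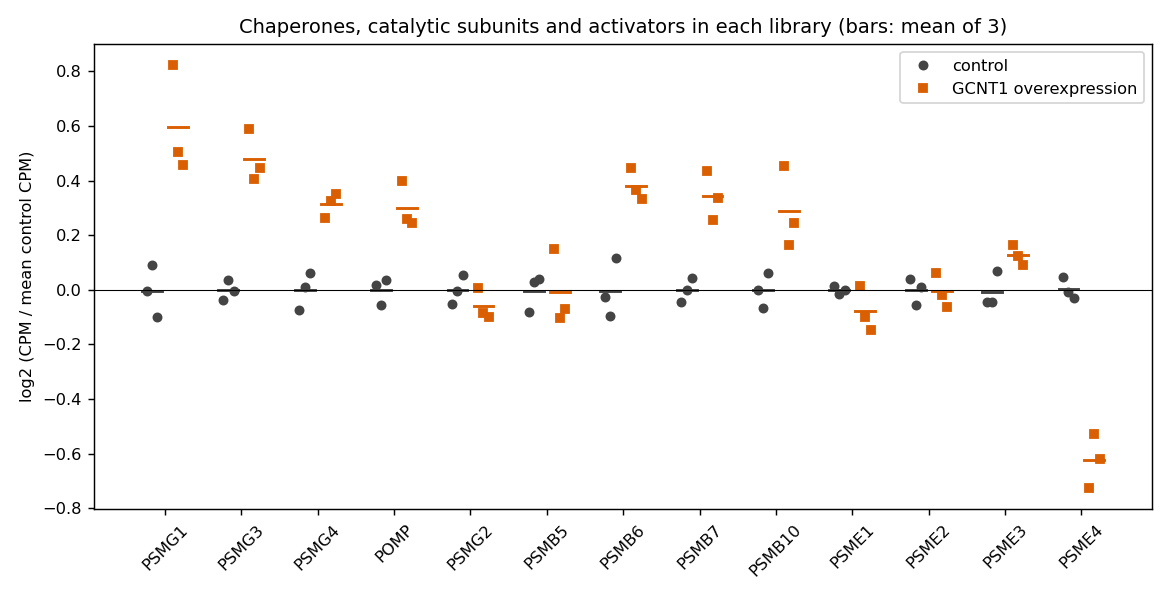
For 13 chaperone, catalytic and activator genes the vertical axis gives the log2 of the CPM of each library over the mean control CPM of the gene, with grey circles for the 3 control libraries, orange squares for the 3 GCNT1 overexpressing libraries and bars for the mean of 3. The orange squares of PSMG1, PSMG3, PSMG4, POMP, PSMB6 and PSMB7 lie above all grey circles of the same gene, those of PSME4 lie below them, and those of PSMG2, PSMB5, PSME1 and PSME2 overlap with them.

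The 2 largest rises, of PSMG1 and PSMG3, were in chaperones that assemble the 20S core. PSMG1 and PSMG2 form a pair that starts the alpha ring, PSMG3 and PSMG4 form a second pair that keeps the ring in shape, and POMP guides the beta subunits on to it and is degraded when the core closes. Of these 5 genes 4 rose (28.3% of all genes), with log2 fold changes of 0.30 to 0.60, and the median over the 5 was 0.32. PSMG1 had 441, 466 and 388 reads in the control libraries and 719, 684 and 680 reads in the overexpressing libraries, or 35.1 ± 2.30 CPM against 53.4 ± 7.62 CPM (SD, n = 3 each). Every overexpressing library was above every control, with replicate 1 at 62.1 CPM and the other overexpressing libraries at 49.8 and 48.2 CPM. The level was 51.4% higher, or 0.60 on the log2 scale (SE 0.09, adjusted p = 0.000119, edgeR). Leaving out overexpressing replicate 1 brought it to 0.48 with an adjusted p of 1.76e-05, and leaving out control replicate 3 to 0.55, both short of the fold threshold.

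PSMG3 was at 27.8, 29.2 and 28.4 CPM in controls and at 42.9, 37.8 and 38.8 CPM in overexpressing libraries, with no overlap (log2 fold change 0.48, SE 0.07, adjusted p = 7.43e-05, edgeR). Its partner PSMG4 was less abundant, at 15.1, 16.0 and 16.6 CPM in controls and 19.1, 19.9 and 20.3 CPM in overexpressing libraries (log2 fold change 0.32, SE 0.08, adjusted p = 0.00456). POMP was at 75.7, 71.9 and 76.5 CPM in controls and 98.4, 89.5 and 88.6 CPM in overexpressing libraries (0.30, SE 0.06, adjusted p = 0.000727). In each of these 3 genes the groups were separate. PSMG2, the partner of PSMG1, did not pass the test. It was at 83.7, 86.4 and 90.1 CPM in controls and 87.0, 81.8 and 81.0 CPM in overexpressing libraries, which overlapped, and its log2 fold change was -0.06 (SE 0.06, adjusted p = 0.384). The 3 chaperones of the 19S base, PSMD5, PSMD9 and PSMD10, had log2 fold changes of 0.05, 0.06 and 0.20, and of these PSMD10, also known as gankyrin, rose (adjusted p = 0.00604).

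The promoters of 3 genes on which these results turn are shown because the antioxidant response element, to which the transcription factors NFE2L1 and NFE2L2 bind, is known from proteasome genes. Each sequence is the stretch before the start of the gene in both annotations used, 5′ to 3′ on the strand of the gene, from RefSeq (GRCh38.p14), and capitals mark a match to the core of that element, TGACNNNGC, on either strand. PSMG1 is on the minus strand at chr21:39183515-39183701, POMP on the plus strand at chr13:28658880-28659064 and PSME4 on the minus strand at chr2:53970994-53971243.
PSMG1: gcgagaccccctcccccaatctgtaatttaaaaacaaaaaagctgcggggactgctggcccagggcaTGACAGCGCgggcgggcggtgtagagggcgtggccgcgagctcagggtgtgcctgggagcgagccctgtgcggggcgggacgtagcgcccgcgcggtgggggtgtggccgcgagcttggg
POMP: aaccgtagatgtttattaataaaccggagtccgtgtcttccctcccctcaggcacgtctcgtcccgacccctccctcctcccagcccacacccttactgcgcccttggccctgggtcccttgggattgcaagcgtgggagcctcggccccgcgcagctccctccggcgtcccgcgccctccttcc
PSME4: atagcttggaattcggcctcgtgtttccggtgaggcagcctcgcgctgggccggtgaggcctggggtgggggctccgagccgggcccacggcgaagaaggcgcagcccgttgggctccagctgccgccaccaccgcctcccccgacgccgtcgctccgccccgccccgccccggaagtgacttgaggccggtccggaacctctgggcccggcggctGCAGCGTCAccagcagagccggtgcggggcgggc
PSMG1, which rose, and PSME4, which fell, each held 1 match, and POMP, which rose, held none in this window. Promoters of 42 of the 48 genes were found in the RefSeq table, and over the 250 bases before the start the letters TGACNNNGC occurred on either strand in 10 of the 42 (23.8%), against 12.1% of the promoters of all genes tested and 11.0% of all 27305 promoters in the table. The 10 were those of PSMA3-AS1, PSMD3, PSMD5, PSMD9, PSMD12, PSME1, PSME2, PSME4, PSMG1 and PSMG2. The CCAAT box, which binds the general factor NF-Y, occurred on either strand in 17 of the 42 (40.5%), against 34.8% and 32.9%. The 2 motifs were searched separately and their matches could overlap.

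Of the 14 genes of the core, including PSMB10, 5 rose and 3 fell (28.3% and 29.3% of all genes). With library size alone 8 were higher and 1 lower, and of all 12703 genes 4290 were higher and 3144 lower. Among the 7 alpha subunits, PSMA4 rose and PSMA2 and PSMA7 fell, with a median log2 fold change of 0.07, while with library size alone 4 were higher and 1 lower, with a median of 0.13. PSMA7 was at 356, 347 and 376 CPM in controls and 318, 292 and 313 CPM in overexpressing libraries, which did not overlap (log2 fold change -0.23, SE 0.05, adjusted p = 0.00167, edgeR). PSMA4 was at 141, 135 and 135 CPM in controls and 171, 153 and 157 CPM in overexpressing libraries (0.23, SE 0.05, adjusted p = 0.00260). PSMA2 had a log2 fold change of -0.13 with an adjusted p of 0.0490, and did not pass the threshold without any one control library, without overexpressing replicate 2 or 3, with library size alone or with DESeq2. PSMA1, PSMA3, PSMA5 and PSMA6 had log2 fold changes of 0.07 to 0.12 with adjusted p between 0.0815 and 0.277. With library size alone PSMA1, PSMA3 and PSMA6 were past the threshold, with adjusted p of 0.0372, 0.0338 and 0.0136.

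Of the beta subunits without a catalytic site, PSMB2 rose by 0.17 on the log2 scale (adjusted p = 0.0242) with overlapping groups, PSMB1 fell by 0.16 (adjusted p = 0.0165) with separate groups, and the log2 fold change of PSMB4 was 0.05 (adjusted p = 0.463). Neither PSMB2 nor PSMB1 stayed past the adjusted p in every alternative. PSMB2 was not past it without overexpressing replicate 1 or 3, without control replicate 1 or 2, or with the replicate block. PSMB1 was not past it without overexpressing replicate 2 or 3, without control replicate 1, or with library size alone.

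Of the 3 standard catalytic subunits 2 rose (28.3% of all genes). PSMB6, which carries the caspase-like activity, was at 106, 101 and 117 CPM in controls and 147, 139 and 136 CPM in overexpressing libraries (log2 fold change 0.38, SE 0.06, adjusted p = 0.000153, edgeR). PSMB7, which carries the trypsin-like activity, was at 159, 164 and 169 CPM in controls and 222, 196 and 207 CPM in overexpressing libraries (0.35, SE 0.05, adjusted p = 0.000135). For both genes every overexpressing library was above every control. PSMB5, which carries the chymotrypsin-like activity and is the main target of the drug bortezomib, was at 137, 148 and 149 CPM in controls and 161, 135 and 138 CPM in overexpressing libraries. Its groups overlapped, with a log2 fold change of 0.00 (SE 0.07, adjusted p = 0.962), which ran from -0.09 to 0.05 as each library was left out in turn.

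PSMB10, the subunit that takes the place of PSMB7 in the immunoproteasome, was at 15.7, 15.0 and 16.4 CPM in controls and 21.5, 17.6 and 18.6 CPM in overexpressing libraries. The groups were separate and the log2 fold change was 0.29 (SE 0.09, adjusted p = 0.0198, edgeR), and 0.20 with an adjusted p of 0.0712 without overexpressing replicate 1. PSMB10 was also not past the adjusted p threshold without control replicate 2 or with DESeq2 (adjusted p = 0.0545). Within each library the log2 ratio of PSMB10 to PSMB7 counts was -3.33, -3.45 and -3.36 in controls and -3.37, -3.47 and -3.48 in overexpressing cells. The group means of this ratio differed by -0.06 (2-sided exact permutation test, p = 0.200, adjusted over 2 ratios 0.200, where 3 against 3 libraries cannot give a p below 0.1). Per kilobase of exon, levels in controls were 93.3 CPM for PSMB5, 74.7 CPM for PSMB6, 91.7 CPM for PSMB7 and 9.67 CPM for PSMB10, so that PSMB10 was the lowest of the 4 on this scale. With the length of the MANE Select transcript instead, a choice made after the data had been seen, the levels were 139 CPM for PSMB5, 131 CPM for PSMB6, 167 CPM for PSMB7 and 16.1 CPM for PSMB10, so that PSMB7 in place of PSMB5 was the highest.

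PSMB3, the other immunoproteasome subunits PSMB8 and PSMB9, and the testis and thymus subunits PSMA8 and PSMB11 were not analysed here. In hg38 the transcript of PSMB3 matched 1, and those of PSMB8 and PSMB9 6 each, of the 261 alternative sequences of the assembly, over at least 95% of their length at 99% identity or more. Those of PSMA8 and PSMB11 matched 0, and none of the 46 transcripts tested for the 48 genes matched any. Whether the mapping used these sequences is not given in the sources used here. BAG6, a neighbour of PSMB8 and PSMB9 on chromosome 6 whose transcript matched 6 of them, had 15, 2 and 0 reads in the control libraries and 19, 3 and 15 reads in the overexpressing libraries.

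In the 19S particle, 4 of the 6 ATPases, which form the unfolding ring, fell (29.3% of all genes). PSMC3, PSMC4, PSMC5 and PSMC6 fell by 0.16, 0.20, 0.14 and 0.12 on the log2 scale with TMM scaling. But with library size alone none of these 4 was past the threshold and PSMC2 was higher (0.12, adjusted p = 0.0449). With that scaling 4290 of all genes were higher and 3144 lower. The adjusted p of the 4 falls lay between 0.0151 and 0.0463, and the groups were separate for PSMC3 and PSMC6 and overlapped for PSMC4 and PSMC5. None of the 4 was past the adjusted p without overexpressing replicate 2, without overexpressing replicate 3 or without control replicate 2. PSMC3, PSMC4 and PSMC5 were also not past it without control replicate 3. PSMC5 and PSMC6 were not past it without control replicate 1, nor PSMC6 without overexpressing replicate 1. With DESeq2 PSMC5 (adjusted p = 0.0623) and PSMC6 (adjusted p = 0.0758) were not past it. With the replicate block PSMC3, PSMC5 and PSMC6 were not past it. PSMC1 and PSMC2 had log2 fold changes of -0.03 and 0.06 with TMM scaling. The sum of the 6 ATPases was 1160, 1170 and 1190 CPM in controls and 1130, 1040 and 1080 CPM in overexpressing libraries.

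Of the 11 non-ATPase subunits of the 19S particle, 6 rose (PSMD2, PSMD3, PSMD7, PSMD11, PSMD12 and PSMD14) and 2 fell (PSMD1 and PSMD8). Of all genes 28.3% rose and 29.3% fell. The median log2 fold change of the 11 was 0.15. PSMD2, a large scaffold subunit that docks ubiquitin-binding shuttle proteins, had the highest level of the 48 genes by CPM. It was at 826, 830 and 839 CPM in controls and 1070, 958 and 1000 CPM in overexpressing libraries (log2 fold change 0.28, SE 0.05, adjusted p = 0.000179, edgeR). PSMD1, the other large scaffold subunit, moved the opposite way, at 285, 288 and 284 CPM in controls and 226, 213 and 214 CPM in overexpressing libraries (-0.39, SE 0.04, adjusted p = 7.56e-06). In both genes the groups were separate. PSMD7 and PSMD14, the pair that cuts ubiquitin chains off substrates, rose by 0.26 (adjusted p = 0.000404) and 0.16 (adjusted p = 0.0121) on the log2 scale. PSMD14 was not past the threshold with the replicate block (adjusted p = 0.0556). PSMD11 rose by 0.24, PSMD3 by 0.23 and PSMD12 by 0.15. PSMD12 was not past the threshold without overexpressing replicate 3 (adjusted p = 0.0677) or with the replicate block (adjusted p = 0.0630). PSMD8 fell by 0.19 (adjusted p = 0.0135) but not past the threshold without overexpressing replicate 2 or 3 or with library size alone. PSMD4, a ubiquitin receptor, PSMD6 and PSMD13 had log2 fold changes of 0.00, -0.10 and 0.07, and PSMD13 was past the threshold with library size alone (adjusted p = 0.0471).

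Activators and the inhibitor act on the 20S core from its ends. PSME4, also called PA200, is associated with nuclear proteasomes and the degradation of histones. It had 1953, 1859 and 1732 reads in the control libraries and 1050, 1423 and 1375 reads in the overexpressing libraries, or 150 ± 4.43 CPM against 97.3 ± 6.43 CPM (SD, n = 3 each). The level fell by 35.2%, with no overlap between the groups (log2 fold change -0.63, SE 0.06, adjusted p = 1.08e-06, edgeR). It was past the adjusted p in each of the same 12 analyses, and its log2 fold change was -0.57 with library size alone, which is short of the fold threshold.

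PSME1 and PSME2 form an activator that interferon induces and that is known from antigen processing. PSME1 was at 104, 102 and 103 CPM in controls and 104, 96.1 and 93.0 CPM in overexpressing libraries, and PSME2 at 68.8, 64.4 and 67.3 CPM and at 69.8, 66.1 and 64.1 CPM. Both overlapped between the groups, with log2 fold changes of -0.08 (adjusted p = 0.241) and -0.01 (adjusted p = 0.944). PSME3, the nuclear member of this family, was at 161, 161 and 174 CPM in controls and 186, 181 and 177 CPM in overexpressing libraries (0.13, SE 0.05, adjusted p = 0.0404, edgeR). Of the rises, that of PSME3 was past the adjusted p in the fewest alternatives. PSME3 was not past it with any one of the overexpressing libraries left out or without control replicate 1 or 2. Nor was PSME3 past it with DESeq2 or with the replicate block. The log2 ratio of PSME1 to PSME3 was -0.64, -0.65 and -0.76 in controls and -0.84, -0.91 and -0.93 in overexpressing cells, a difference of -0.21 with no overlap (2-sided exact permutation test, p = 0.1, the smallest that 3 against 3 allow, adjusted p = 0.200).

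PSMF1, the inhibitor known as PI31, was at 211, 231 and 235 CPM in controls and 205, 183 and 183 CPM in overexpressing libraries (log2 fold change -0.25, SE 0.06, adjusted p = 0.00310, edgeR), with separate groups. PSME3IP1, which encodes a protein that binds PSME3, was at 121, 130 and 126 CPM in controls and 103, 96.1 and 96.9 CPM in overexpressing libraries (-0.35, SE 0.05, adjusted p = 0.000113), also without overlap. The other genes matched by symbol alone did not pass the test. PSMC3IP, a meiotic recombination factor, was at 20.3, 19.8 and 18.3 CPM and at 21.0, 20.2 and 21.3 CPM. The long non-coding RNA PSMG3-AS1 was at 6.28, 5.94 and 6.09 CPM and at 5.10, 5.68 and 5.10 CPM, and PSMA3-AS1 at 102, 101 and 103 CPM and at 98.3, 101 and 104 CPM. Genes of either strand overlapped 26 of the 48 genes, 21 of them on the opposite strand, and whether the counting used strand is not given in the sources used here, so that reads of such pairs may not have been told apart. PSME4 is one of them: ACYP2 lies on the opposite strand.

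The differences were set beside those of neighbouring genes. For each gene the median log2 fold change of the 50 nearest genes analysed was taken as a local median. Over the 48 genes the log2 fold change and the local median had a Pearson r of 0.65 and a Spearman rho of 0.61, given as a description over genes that share the 6 libraries and in part their neighbours. Of the 29 genes past the adjusted p, 24 had the sign of their local median. The neighbours of PSME4 on chromosome 2 had a local median of -0.44 and those of PSMD1, on the same chromosome, of -0.52, beside their own log2 fold changes of -0.63 and -0.39. PSMG3 stood beside a local median of 0.42, and PSMG1, on chromosome 21, beside 0.28. With the local median subtracted, none of the 48 genes kept an absolute log2 fold change of 0.58 together with the adjusted p. Of the 48 genes, 4 lay at least 0.3 from their local median: PSMG1 (0.32 above), PSMG4 (0.31 above), PSMD6 (-0.32) and PSMG3-AS1 (-0.65). The same measures were not computed over all genes, so they have no background here. DNA copy number was not analysed here.

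**Figure D4:**
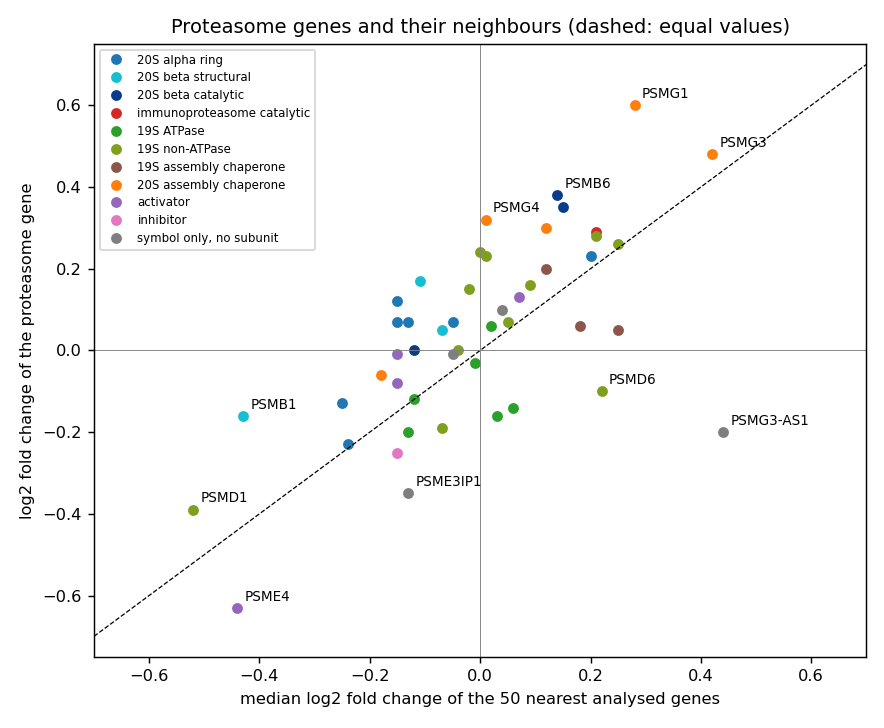
The log2 fold change of each of the 48 genes (vertical axis) is plotted against the median log2 fold change of its 50 nearest analysed genes (horizontal axis), with a line of equal values. The points rise from left to right with scatter around the line, with PSME4 and PSMD1 at the low end and PSMG3 and PSMG1 at the high end.

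Other genes work with the proteasome without carrying its symbol. Of 13 such subunits and partners, 4 rose and 2 fell (28.3% and 29.3% of all genes), and none was called. SEM1, the smallest 19S subunit, was at 86.0 ± 3.36 CPM in controls and 109 ± 1.67 CPM in overexpressing cells (SD, n = 3 each, log2 fold change 0.34, adjusted p = 0.000112, edgeR). ADRM1, a ubiquitin receptor, fell from 193 to 164 CPM (-0.23, adjusted p = 0.0115) with overlapping groups, and ZFAND5, which binds and activates the proteasome, rose from 87.1 to 120 CPM (0.46, adjusted p = 7.11e-06). The local medians were 0.09 for SEM1, -0.25 for ADRM1 and 0.27 for ZFAND5. Of 6 ubiquitin and E1 genes 1 rose and 3 fell (28.3% and 29.3% of all genes), and none was called. Without control replicate 2 the number past the adjusted p went from 4 to 2. RPS27A, which encodes ubiquitin fused to a ribosomal protein, fell from 475 to 332 CPM (-0.52, adjusted p = 4.71e-07) beside a local median of -0.45. Its counts are uncertain because the gene has near-identical pseudogenes. The activating enzyme gene UBA1 fell from 738 to 639 CPM (-0.21, adjusted p = 0.00366) beside a local median of 0.04.

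Of 10 genes for shuttle factors and the segregase, 2 rose and 2 fell (28.3% and 29.3% of all genes). The rises were those of RAD23B (0.29, adjusted p = 7.54e-05) and UBQLN1 (0.25, adjusted p = 0.000305), both carriers of ubiquitylated substrates, and the falls those of NPLOC4 (-0.19, adjusted p = 0.00312) and UFD1 (-0.18, adjusted p = 0.0109), partners of the segregase. The local medians were 0.37 for RAD23B, 0.32 for UBQLN1, -0.33 for NPLOC4 and -0.15 for UFD1. Of 11 genes of the axis that raises proteasome gene transcription when proteasome activity falls, 4 rose and 3 fell, near the shares of all genes (28.3% and 29.3%), and none was called. NFE2L1, its central transcription factor, rose from 686 to 778 CPM (0.18, adjusted p = 0.00196), NFE2L2 from 87.5 to 111 CPM (0.34, adjusted p = 0.000114), and MAFK, a partner of both in binding DNA, to 34.5 CPM (0.47, adjusted p = 0.000469). In these 3 genes the groups did not overlap. Their local medians were 0.16, -0.09 and 0.42. The 3 falls were those of NFE2L3 (-0.21, adjusted p = 0.0111), a relative of NFE2L1, MAFF (-0.21, adjusted p = 0.00840), another DNA-binding partner, and BTRC (-0.26, adjusted p = 0.0130), part of a ubiquitin ligase. The local medians of these falls were 0.01, -0.25 and 0.05.

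The genes of antigen presentation by MHC class I, which uses the peptides that proteasomes make, included larger differences. Of the 18 genes of this list, 12 were analysed here. Of these 12, 6 rose and 4 fell (28.3% and 29.3% of all genes), and 4 were called (19.3% of all genes). The transcriptional activator genes NLRC5 (2.14 ± 0.173 CPM against 5.97 ± 1.16 CPM, SD, n = 3 each, log2 fold change 1.46, adjusted p = 2.86e-05, edgeR) and IRF1 (11.6 against 22.1 CPM, 0.92, adjusted p = 8.74e-06) and the peptide editor TAPBPL (0.568 against 1.40 CPM, 1.28, adjusted p = 0.00238) rose. HLA-B fell from 8.30 to 4.87 CPM (-0.78, adjusted p = 0.000256), and since it shares sequence with other HLA class I genes its counts are uncertain. B2M, the light chain of MHC class I, rose from 72.4 to 107 CPM (0.56, adjusted p = 2.37e-06), and the chaperone gene CANX fell from 1210 to 903 CPM (-0.42, adjusted p = 4.32e-06), both short of the fold threshold. The local medians were -0.13 for NLRC5, -0.11 for IRF1, 0.19 for TAPBPL, -0.11 for HLA-B, -0.20 for B2M and -0.28 for CANX. The interferon-inducible proteasome genes analysed had log2 fold changes of 0.29 for PSMB10, -0.08 for PSME1 and -0.01 for PSME2.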

How the data were processed

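The authors prepared stranded mRNA libraries from PC3 lines, sequenced 75 bp single reads, trimmed them, mapped them to hg38 with HISAT2 and deposited raw counts per gene from featureCounts, 1 column per library, without normalization. FastQC, featureCounts and limma stand in the submitters' processing notes. The annotation, the treatment of strand and any filter on low counts are not given in the sources used here.

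The counts were tested in R 4.3.3 with edgeR 4.0.16 (filterByExpr, which kept all 12703 genes, TMM factors, quasi-likelihood test of the 2 groups, Benjamini-Hochberg adjustment over all genes). The study used limma-voom, which is an alternative here (limma 3.58.1), as is DESeq2 1.42.0. The other alternatives were RLE factors, library size alone, no filter (the same fit, since no gene was removed), at least 10 counts in every library, glmTreat, a replicate block, the local median and each library left out in turn. Symbols were found for 12661 genes, and lengths and overlaps were taken from GENCODE 44. Ratios had 0.5 added to each count. Transcripts were matched to alternative sequences with minimap2 2.31-r1302. Python 3.11.15 and SciPy 1.17.1 were used for the rest, and the fits were tested on simulated data.

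Same-numbered libraries of the groups did not deviate together, so the numbers were not taken as pairs. Nothing in the labels says whether the lines of a group came from separate transductions, and p-values measure the spread between these 3 libraries. The genes and lists were chosen with earlier results of these data known. Values per library were given for called genes, the 5 largest rises and the 5 largest falls past the adjusted p, catalytic subunits, PSME, PSMG and POMP genes, and symbol-only matches, and also for PSMA4 and PSMD2. Of each related list, the called genes and the 2 smallest p were named, with SEM1 and ADRM1. NFE2L1, NFE2L3, MAFF, BTRC, NPLOC4, UFD1 and BAG6 were named after their values were seen. Part of the marker list is not reported here.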

Additional observations from a re-analysis of the deposited data

How the results depend on the processing

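The count of 2 called proteasome genes was 0 with glmTreat, which tests against the fold threshold itself (0 higher, 0 lower, against 527 higher and 865 lower of all 12703 genes), 1 with library size alone (1 higher, 0 lower), and 0 relative to the local median (0 higher, 0 lower). As each library was left out in turn it ran from 1 to 2, with 0 to 1 higher, the lower value without overexpressing replicate 1 or control replicate 3. The 29 genes past the adjusted p became 19 to 25 with a library left out, the lowest without overexpressing replicate 3 (3090 higher and 3256 lower of all genes), and the 12 falls among them 5 to 11. With library size alone the falls were 5 and the median log2 fold change was 0.12, with a median over all genes of 0.06 in place of 0.00. DESeq2 gave 24 genes past the adjusted p (3074 higher and 3282 lower of all genes) and limma-voom 29 (3598 and 3716).

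Some values near zero changed sign. With library size alone PSMA3-AS1 was at 0.05, PSMB5 at 0.05, PSMC1 at 0.03, PSMD4 at 0.05 and PSME2 at 0.05. With a library left out, PSMA3-AS1 ran from -0.03 to 0.01, PSMB5 from -0.09 to 0.05, PSMC1 from -0.07 to 0.01, PSMD4 from -0.03 to 0.02, PSMD5 from -0.01 to 0.10 and PSME2 from -0.04 to 0.02.

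The correlation of deviations between same-numbered libraries was -0.273, -0.0024 and -0.109, against a mean of 0.0644 for libraries of different numbers. With the replicate block 2 genes were called and 21 were past the adjusted p, 13 higher and 8 lower (3178 and 3353 of all genes), with PSMA2, PSMB2, PSMC3, PSMC5, PSMC6, PSMD12, PSMD14 and PSME3 no longer past it, and the ubiquitin and E1 genes past it went from 4 to 2, also 2 to 4 with a library left out. RLE factors, no filter and at least 10 counts in every library each gave 29 genes past the adjusted p. The cause of these changes was not tested.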
